A study of Mus musculus with 12 samples.

Results

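The comparison described here is the interaction of vector and chow: the difference between Dux vector and empty vector muscle on doxycycline chow, minus the same difference on normal chow. Written the other way round, it is the change with doxycycline chow in Dux vector muscle minus the change with doxycycline chow in empty vector muscle. It was chosen by its groups alone and covers all genes. It uses all 12 of the 12 libraries of the series, 3 in each of 4 groups, and 12751 of the 12752 genes in the count table were tested.

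RNA was sequenced from whole tibialis anterior, a fast muscle of the lower leg, of male C57BL/6 mice. At 8 weeks of age, AAV:TET was injected together with AAV:MCS, the empty vector, into the muscle of 1 limb, and together with AAV:Dux into that of the other limb, so that muscle of all 4 groups carried AAV:TET. After 7 days the mice stayed on standard chow or were moved to chow with doxycycline at 600 mg/kg. The series describes the transgene as doxycycline-inducible and asks which genes change in muscle when Dux is overexpressed. EV is empty vector on normal chow, EV_DOX empty vector on doxycycline chow, DUX the Dux vector on normal chow, and DUX_DOX the Dux vector on doxycycline chow. The labels name 2 or 7 days of chow without saying which holds for these libraries, and give the vector dose as a range. They name neither the promoter of the transgene nor the share of fibres that took up vector. They do not say which libraries came from the limbs of 1 animal, or that the 3 libraries of a group came from separate animals, so p-values measure only the spread between these libraries. In whole muscle, fewer cells of a type and less RNA per cell cannot be told apart.

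Dux is a homeobox transcription factor of the early mouse embryo, where it switches on genes of the 2-cell stage such as the Zscan4 and Usp17l families. Its human relative DUX4 is known for its toxicity to muscle fibres in facioscapulohumeral muscular dystrophy. In doxycycline-inducible systems the drug allows a transactivator to bind the promoter of the transgene, so the vector alone, the drug alone and the vector with the drug can each leave a trace in the RNA. The interaction holds only what the vector and the drug do together beyond the sum of their separate changes on the log2 scale.

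An interaction of 1 on the log2 scale means that the ratio of Dux vector to empty vector was 2-fold higher on doxycycline chow than on normal chow. Levels are CPM, the counts of a gene as a share of its library, scaled by TMM library factors. A gene was called when its adjusted p, from edgeR's quasi-likelihood F test with Benjamini-Hochberg adjustment over all 12751 genes, was under 0.05. Every adjusted p below is from that test unless another tool is named. The median standard error (SE) of the interaction was 0.199 log2, against 0.14 for DUX_DOX minus EV_DOX, because 4 group means enter it.

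Library totals ran from 11880593 to 13811999 counts, with TMM factors from 0.916 to 1.12. Fast fibre contractile and calcium handling genes together held 168468 to 195375 CPM in the 9 libraries outside DUX_DOX and 139463 to 157209 CPM in DUX_DOX. EV 3 and EV_DOX 1 stood apart in tendon genes: 13 tenocyte markers summed to 1228 and 1189 CPM there and to 129 to 616 CPM in the other 10 libraries. The main results that touch these libraries are given with and without them.

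Doxycycline chow went with many changes where the Dux vector was present and with few under the empty vector, and the called genes included 20 of 44 heat shock chaperones, higher, and 15 of 45 genes of fat oxidation or the TCA cycle, lower. The interaction was called for 1326 genes (10.4%), of which 889 (6.97%) were higher and 437 (3.43%) lower. Without adjustment, 3435 genes had a p under 0.05. In the same fit, which shares its libraries, doxycycline chow changed 3772 genes in Dux vector muscle (29.6%; 16.5% higher, 13.1% lower) and 5 in empty vector muscle (0.0392%; 999 at an unadjusted p under 0.05). Dux against empty vector was called for 3224 genes on doxycycline chow (25.3%), 1905 higher (14.9%) and 1319 lower (10.3%). On normal chow edgeR called 0 genes, with a smallest adjusted p of 0.179 and 2012 genes at an unadjusted p under 0.05.

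The gap between the 2 vectors opened mainly in one group. DUX_DOX was the group farthest from the mean of the other 3 in 1180 of the 1326 called genes, against 7079 of all 12751. DUX was the farthest in 97, EV in 27 and EV_DOX in 22, against 2165, 2406 and 1101 of all genes. In 792 of the 889 higher genes all 3 DUX_DOX libraries lay above the other 9 libraries, a pattern seen in 2000 of all genes tested (15.7%). In 302 of the 437 lower genes all 3 lay below the other 9 (1376 of all genes, 10.8%). The other 232 called genes have DUX_DOX libraries that overlap those of another group.

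The sizes differed by direction. Higher genes had a median interaction of 0.95 log2, with a median difference between the vectors of 0.86 on doxycycline chow and of -0.10 on normal chow. Lower genes had a median of -0.63, with -0.48 on doxycycline chow and 0.16 on normal chow. More than a 2-fold interaction was reached by 416 higher genes and 54 lower genes, and by 871 of all 12751 genes, called or not. In 125 called genes the vectors differed more on normal than on doxycycline chow, against 4584 of all 12751. The interaction had the same sign on the CPM scale, as a difference of differences, in all 1326 called genes, while 289 of the 12751 genes tested change sign between the scales. Among the 12581 genes with a mean of at least 10 counts in the 9 libraries outside DUX_DOX, 855 (6.80%) were called higher and 437 (3.47%) lower. The number of calls for the interaction of vector and chow moved by over 1.5 times when single libraries were left out: to 2148 without EV_DOX 1, and to 813 without EV 3, 861 without EV_DOX 3, 862 without DUX 1, 881 without DUX 2, 851 without DUX 3 and 841 without DUX_DOX 2. Of the 1326 calls, 638 (513 higher, 125 lower) were also made in the same direction under each of the 22 alternative settings. Higher genes were 67.0% of the calls with TMM factors, 56.9% with upper-quartile factors and 87.0% with no factors, where the median of all genes moved from 0.01 to 0.15.

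**Figure D1:**
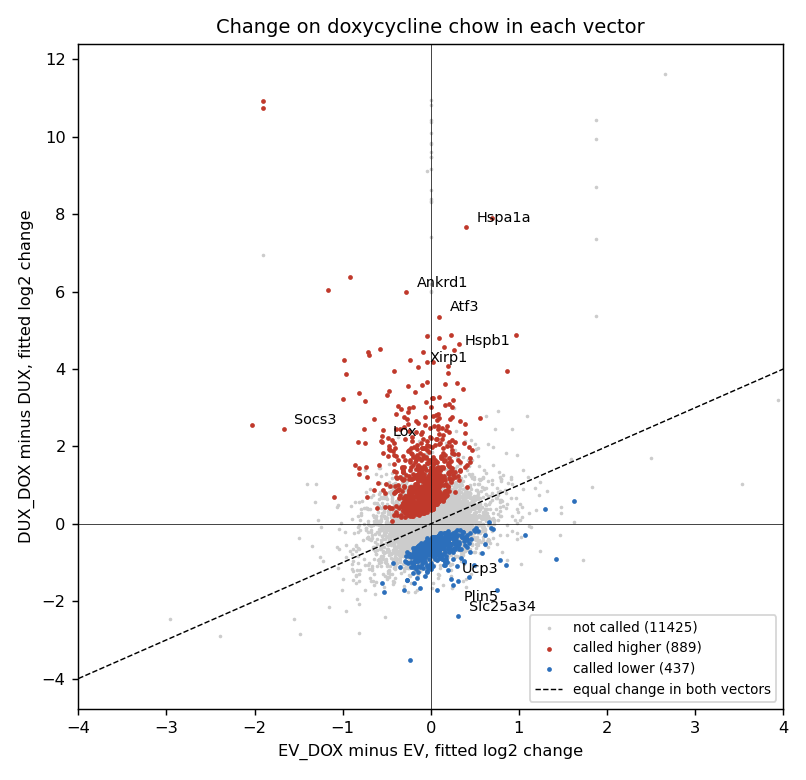
Each point is 1 of the 12751 genes tested; the x axis is the fitted log2 change with doxycycline chow in empty vector muscle (EV_DOX minus EV) and the y axis that in Dux vector muscle (DUX_DOX minus DUX), with genes called higher in the interaction in red (889), lower in blue (437) and the rest in grey. Called genes lie away from the dashed line of equal change, 1136 of the 1326 with under 0.3 log2 of change on the x axis (10967 of all genes), and the grey points high at or near an x of 0 or 1.9 are genes with at most 3 counts in a group, whose fitted values are no bound.

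Of the tested genes that Dux switches on in the embryo, most were read almost only in DUX_DOX, so edgeR's fitted log2 interaction had a large SE. Dux is not analysed here as a gene. AW822073, the transcript beside it (GRCm38, chr10:58222972-58224930), had 0 counts summed over EV, 1 over EV_DOX, 3 over DUX and 143 over DUX_DOX. Its DUX_DOX counts were 46.5 times those of DUX after scaling (95% counting interval 15.6 to 228). The list of Dux targets and 2-cell genes named 42 symbols, and only 17 of these were among the genes tested. They gave 19 tested genes, and 15 of them had at most 3 counts in some group. The 4 members with more than 3 counts in each group had a median interaction of -0.28. Summed, these 15 genes held 2 counts in EV, 6 in EV_DOX, 17 in DUX and 17328 in DUX_DOX.

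Zscan4c, a zinc finger gene of the 2-cell stage (chr7:11005745-11010547), had 0 counts in EV, 2 in EV_DOX, 0 in DUX and 1214 in DUX_DOX, at least 394-fold higher in DUX_DOX than in DUX (bound from 3 counts summed over DUX). Usp17le, a deubiquitinase gene (chr7:104768049-104777470), had 0, 0, 3 and 2486 counts, 808 times as many in DUX_DOX as in DUX (counting interval 276 to 3919). Tmem92, a membrane protein gene (chr11:94777217-94782703), had 2, 2, 8 and 4832 counts. The counts separate DUX_DOX from all other groups, although reads of near-identical Zscan4 and Usp17l copies cannot be assigned to single genes. Counting intervals cover counting error only.

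In all, 34 genes had at most 3 counts in a group, and the interaction was called for 5 of them (14.7%) by edgeR's quasi-likelihood test: Fosl1, Rn7sk, Hsp25-ps1, RP24-351P7.8 and RP24-560O24.2. DESeq2's Wald test called 28 (4 had no adjusted p) and limma-voom all 34. None of the 15 target genes was called by edgeR, 14 by DESeq2 (1 had no adjusted p) and 15 by limma-voom. Their edgeR adjusted p ran from 0.0825 to 1.000 with SE from 3.22 to 26046 log2. A group at 0 gives no log2 mean. Tmem92, which had counts in every group, had the lowest SE, with a fitted interaction of 9.16. The table holds genes with a mean of at least 10 counts, so a gene near 0 in the other groups is in it only through DUX_DOX, and these counts are a description. Of the other members, Fgf1, a growth factor, was called higher (1.43, SE 0.19, adjusted p = 3.09e-04), and Zfp750, a zinc finger gene of skin, lower (-3.29, SE 0.82, adjusted p = 0.0209). The call for Zfp750 was lost without EV_DOX 3, DUX 1, DUX_DOX 2 or DUX_DOX 3 (adjusted p from 0.00326 to 0.0683 over all alternatives).

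Heat shock chaperones, which bind unfolded proteins and refold them or hand them on for degradation, were called higher in part. Of 44 tested members 20 were called higher and 0 lower (6.97% and 3.43% of all genes), with a median of 0.31 against 0.01 for all genes. All 20 had DUX_DOX libraries above the other 9. Their highest values were those of the inducible Hsp70 genes, the small heat shock proteins and the inducible Hsp90. The members' summed level was 5665 to 7026 CPM in EV, 5560 to 6674 in EV_DOX, 6908 to 8241 in DUX and 17115 to 19133 in DUX_DOX.

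Short stretches upstream of 5 called genes are shown because Hsf1, the heat shock factor, binds inverted repeats of GAA and TTC, and ATF4 and its partners bind TGATGNAA. Sequences are from RefSeq's promoter table on GRCm38.p6, read 5′ to 3′ on the strand of the gene, and capitals mark a match to GAANNTTC or TTCNNGAA (TTNCATCA for Atf3). The windows lie at chr5:135887782-135887849 (+ strand) for Hspb1, chr9:54699449-54699534 (+) for Dnaja4, chr17:34972233-34972280 (- strand) for Hspa1a, chr17:34959315-34959362 (-) for Hspa1b and chr1:191183416-191183463 (-) for Atf3.
Hspb1: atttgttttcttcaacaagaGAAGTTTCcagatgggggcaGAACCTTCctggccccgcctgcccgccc
Dnaja4: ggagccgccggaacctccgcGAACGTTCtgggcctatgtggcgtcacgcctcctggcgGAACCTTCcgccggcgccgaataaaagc
Hspa1a: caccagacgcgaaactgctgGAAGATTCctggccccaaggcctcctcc
Hspa1b: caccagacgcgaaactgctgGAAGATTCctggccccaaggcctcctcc
Atf3: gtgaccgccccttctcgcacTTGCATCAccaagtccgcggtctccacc

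Within the 250 bases before the start site, searched on both strands, the pair of units GAANNTTC or TTCNNGAA was present in 8 of the 15 called heat shock genes with a promoter in the table (53.3%), in 7 of 21 uncalled members (33.3%) and in 12.8% of all 32851 promoters. A full heat shock element was searched as 3 alternating units without any mismatch. Such an exact match was present in 0 of the 15, in 3 of the 21 and in 0.466% of all promoters. Elements with a mismatch in a unit were not counted. These values therefore do not show that the called genes lack a heat shock element. Overlapping matches are possible, and the shorter motif was searched after the longer one had been counted. No promoter of Cryab, Hsp90aa1, Hsp90ab1, Hspa8 or Hspb2 was read. Hspa1a and Hspa1b are near-identical copies, with 247 of 250 upstream bases equal, so their separate counts are uncertain.

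Hspb1, a small heat shock protein that binds misfolded proteins (chr5:135887919-135889563), measured 44.6, 46.3 and 48.4 CPM in EV and 59.2, 53.1 and 54.4 in EV_DOX. It measured 44.6, 58.7 and 50.6 CPM in DUX, and 1239, 1141 and 1055 in DUX_DOX. The 3 DUX_DOX libraries stood far above the other 9, which overlapped, and the interaction was 4.22 (SE 0.15, adjusted p = 1.24e-09), the smallest p of all genes. Hspa1a, the inducible Hsp70 (chr17:34969190-34972156), measured 0.870 to 1.70 CPM in the 9 other libraries and 269, 241 and 116 in DUX_DOX. DUX_DOX 3 was the lowest of its group and still far above every other library (interaction 7.26, SE 0.81, adjusted p = 7.50e-05). Hspa1b gave 7.20 (SE 1.23, adjusted p = 0.00231).

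Hsp90aa1, the inducible Hsp90 (chr12:110690605-110702728), measured 17.7 to 21.9 CPM in the 9 other libraries and 212, 225 and 136 in DUX_DOX, with no overlap (3.25, SE 0.23, adjusted p = 1.56e-06). Cryab, alpha-B crystallin, and Hspb7 are small heat shock proteins of muscle that were picked out after their values were seen. Cryab measured 357, 485 and 329.7 CPM in EV, 325, 353 and 437 in EV_DOX, 688, 742 and 563 in DUX, and 4693, 4191 and 4582 in DUX_DOX. Its DUX libraries lay above those of both empty vector groups, although DUX minus EV did not pass the test (0.77), and its interaction was 2.83 (SE 0.22, adjusted p = 2.66e-06). The constitutive members moved less: Hspa8, the constitutive Hsp70, had 0.98 and Hsp90ab1, the constitutive Hsp90, 0.40. Of 14 cytosolic chaperonin and prefoldin genes, which fold actin and tubulin, 1 was called higher, Cct3 (0.45, SE 0.10, adjusted p = 0.0129, and 0.0501 without EV_DOX 2).

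**Figure D2:**
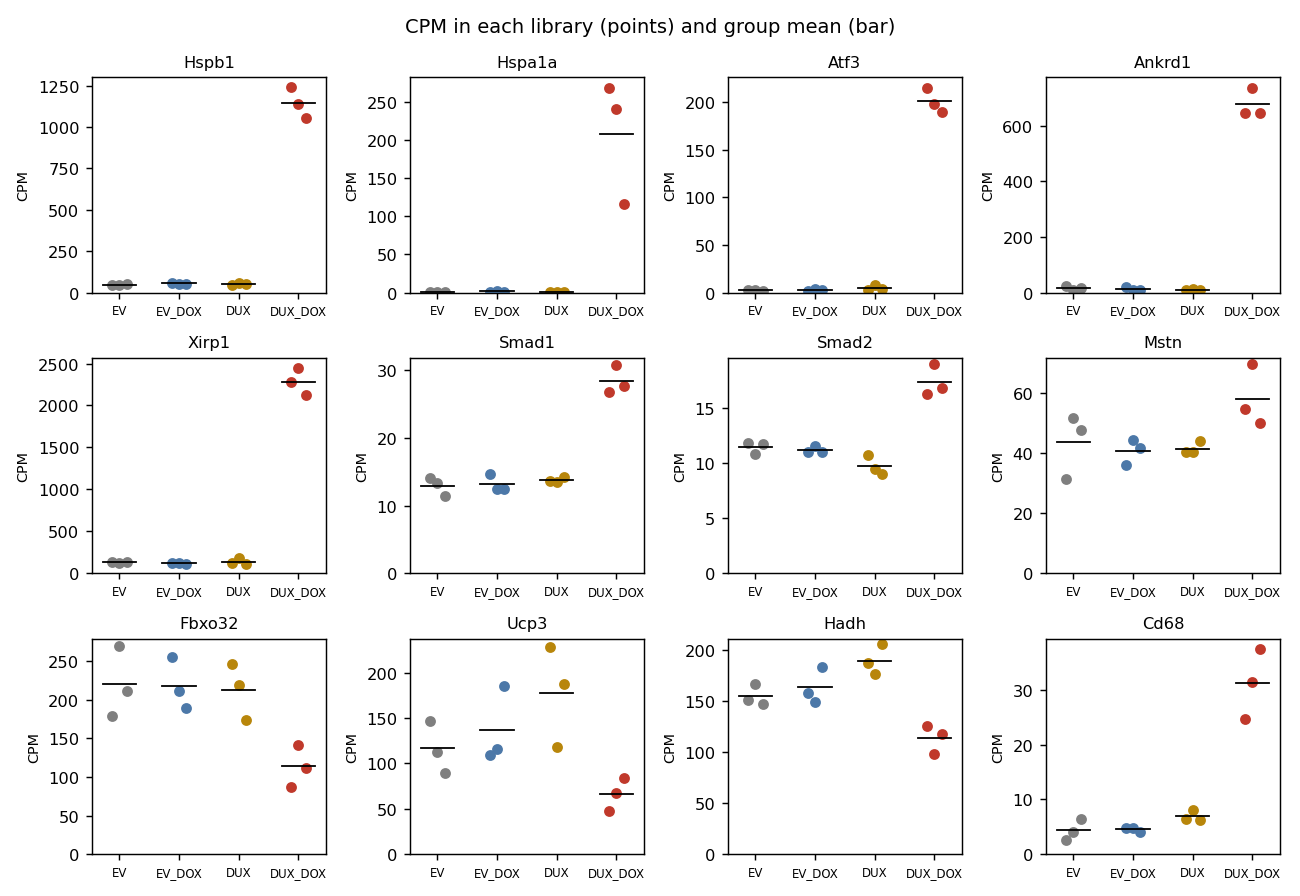
TMM-scaled CPM (y axis, from 0) of 12 genes in each of the 3 libraries of the 4 groups (x axis); points are libraries and the bar is the group mean. In Hspb1, Hspa1a, Atf3, Ankrd1, Xirp1, Smad1, Smad2 and Cd68 all DUX_DOX points lie above the other 9, in Fbxo32, Ucp3 and Hadh they lie below, and in Mstn the lowest DUX_DOX point lies below the highest EV point.

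Genes of the integrated stress response, which slows translation when unfolded protein or amino acid shortage is sensed, and of the unfolded protein response of the endoplasmic reticulum were called higher in part. Of 39 tested members 19 were called higher and 1, Herpud1 (-0.43), lower, with a median of 0.66. Atf3, a stress-induced transcription factor (chr1:191170296-191218039), measured 2.90, 2.65 and 1.69 CPM in EV, 1.53, 3.18 and 3.05 in EV_DOX, 3.08, 8.23 and 3.36 in DUX, and 215, 198 and 189 in DUX_DOX. DUX 2 was the highest of the 9 other libraries, and no DUX_DOX library overlapped them (5.26, SE 0.51, adjusted p = 2.29e-05). Ppp1r15a, the phosphatase subunit that ends the translation block (chr7:45522916-45526268), measured 19.1 to 24.7 CPM outside DUX_DOX and 144, 170.5 and 134 in it (2.75, SE 0.17, adjusted p = 3.66e-07). Hspa5, the chaperone BiP of the endoplasmic reticulum, picked out after its values were seen, measured 119 to 152 CPM outside DUX_DOX and 269, 305 and 294 in it (0.92, SE 0.14, adjusted p = 7.72e-04). The other called members included Sdf2l1 (2.33), Sesn2 (1.53), Manf (1.12), Dnajb9 (0.98), Xbp1 (0.68) and Atf4 (0.66). The Herpud1 call was lost without any single library but EV 2, EV_DOX 1 or DUX_DOX 1. TGATGNAA or its reverse TTNCATCA was found upstream of 1 of the 15 called members with a promoter in the table, Atf3, in 3 of the 19 members not called higher (15.8%) and in 3.45% of all promoters. In the amino acid supply list it was found in 0 of 5 called and 6 of 20 uncalled members.

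Amino acid supply moved in part. Of 35 aminoacyl-tRNA synthetases and amino acid supply genes 7 were called higher and 0 lower (median 0.10), and 1 of the 7, Vars (0.38), was a synthetase. Mthfd2, a mitochondrial folate enzyme, measured 3.53 to 6.72 CPM in the 9 other libraries and 28.8, 39.4 and 39.2 in DUX_DOX (2.18, SE 0.26, adjusted p = 1.30e-04). Slc38a2, a neutral amino acid transporter, measured 125, 117 and 109.8 CPM in EV, 79.2, 101 and 95.2 in EV_DOX, 107, 103 and 88.8 in DUX, and 163, 169 and 167 in DUX_DOX (1.10, SE 0.14, adjusted p = 2.38e-04). Psat1, of serine synthesis, picked out after its values were seen, had 2.36. The count was 4 without EV 3, DUX 1 or DUX 3.

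Immediate early genes, the first transcription factors induced by stress and growth signals, were higher in 14 of 30 and lower in 0 (median 0.91). Fosl1, an AP-1 subunit (chr19:5447547-5455946), had 4 counts summed over EV, 2 over EV_DOX and 2 over DUX, against 202 over DUX_DOX. That is 98.4 times the DUX counts after scaling (counting interval 26.9 to 818). Its interaction call (adjusted p = 0.01000) was lost without EV 3 (adjusted p = 0.171), which held 3 of the 4 EV counts, and without EV 3 and EV_DOX 1 together (0.151). Csrnp1, a nuclear protein induced by axin signalling, measured 2.08 to 3.69 CPM outside DUX_DOX and 28.9, 28.8 and 26.3 in it (2.95, SE 0.23, adjusted p = 2.89e-06). Ier5, an immediate early gene, measured 4.89 to 8.16 CPM outside DUX_DOX and 30.9, 33.6 and 27.3 in it (1.92, SE 0.24, adjusted p = 1.86e-04). Egr3 (4.58), Dusp5 (3.72), Fos (3.23), Egr1 (2.22) and Jun (0.91) were also called.

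Targets of p53 and cell death genes were called higher in 7 of 44 (15.9%, against 6.97% of all genes). They were called lower in 1, Tigar (-0.47), and the median was 0.22. Btg2, an antiproliferative p53 target (chr1:134075170-134079120), measured 12.9 to 16.7 CPM in the 9 other libraries and 68.0, 73.8 and 61.4 in DUX_DOX (2.23, SE 0.16, adjusted p = 1.76e-06). Mdm2, the ubiquitin ligase of p53, measured 59.3, 51.2 and 52.2 CPM in EV, 51.2, 44.6 and 48.8 in EV_DOX, 43.3, 43.2 and 44.0 in DUX, and 60.7, 64.9 and 52.0 in DUX_DOX. DUX_DOX 3 fell among the EV libraries, so here a low DUX group adds to the interaction (0.61, SE 0.13, adjusted p = 0.00960). The count of 7 was 4 without EV_DOX 2, DUX 2, DUX 3, DUX_DOX 2 or DUX_DOX 3, and the Tigar call was lost without EV 1, EV_DOX 2, EV_DOX 3, DUX_DOX 2, DUX_DOX 3 or any 1 DUX library.

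NRF2 targets and metallothioneins, the oxidant and metal defence, split, with a median of 0.00. Of 32 members 7 were called higher (21.9%, against 6.97% of all genes). The mitochondrial superoxide dismutase Sod2 (-0.61) was the 1 called lower. Srxn1, sulfiredoxin, which reactivates oxidised peroxiredoxins (chr2:152105516-152111376), measured 13.4 to 21.1 CPM outside DUX_DOX and 70.5, 70.0 and 62.1 in it (2.36, SE 0.15, adjusted p = 3.66e-07). Mt2, a metal-binding protein, measured 1.18 to 4.81 CPM outside DUX_DOX and 37.7, 20.5 and 34.2 in it (3.90, SE 0.61, adjusted p = 0.00113). The higher count was 3 without EV 1, EV_DOX 2, EV_DOX 3, DUX 1, DUX 2 or DUX_DOX 3, 4 without EV 3, DUX 3 or DUX_DOX 2, and 12 with no library factors. The Sod2 call was lost without EV 1, EV 3, EV_DOX 3, DUX 1, DUX 3, DUX_DOX 2 or DUX_DOX 3.

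**Figure D3:**
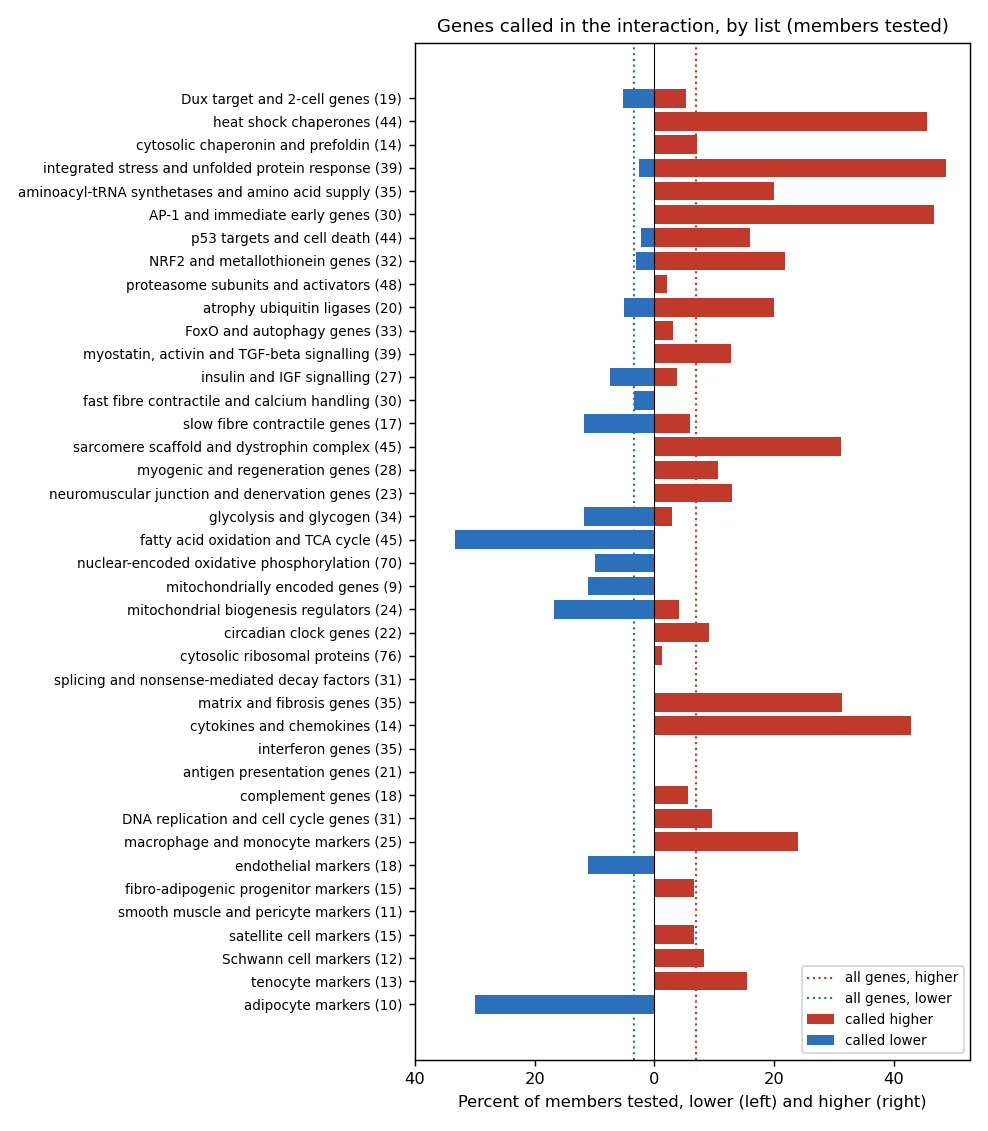
For each gene list (number of tested members in parentheses), the bars give the percentage of members called higher (right, red) and lower (left, blue) in the interaction, and the dotted lines give the same for all genes tested, 6.97% and 3.43%. Heat shock, integrated stress and immediate early genes reach 45.5%, 48.7% and 46.7% higher, and the genes of fatty acid oxidation or the TCA cycle 33.3% lower.

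Proteasome genes and FoxO and autophagy genes showed little interaction. Of 48 proteasome subunits and activators 1 was called higher and 0 lower (median -0.07). That gene was Psmd11, a lid subunit that limits assembly of the 26S proteasome (chr11:80428615-80473248), at 87.3 to 102 CPM outside DUX_DOX and 187, 200.4 and 188 in it (0.97, SE 0.11, adjusted p = 1.14e-04). FoxO and autophagy genes had 1 of 33 called, Tfe3, a lysosomal transcription factor, at 0.58 (adjusted p = 0.0444); the call was lost in 15 of 22 alternatives (adjusted p from 0.0198 to 0.105), among them leaving out any 1 of EV 1, EV 3, EV_DOX 2, EV_DOX 3, DUX_DOX 2, DUX_DOX 3 or a DUX library.

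Of 20 ubiquitin ligases tied to atrophy 4 were called higher (Trim32, 0.85; Traf6, 0.64; Smurf2, 0.62; Mdm2, 0.61) and 1 lower. Fbxo32, atrogin-1, the lower one (chr15:58175879-58214932), measured 179.7, 269.8 and 212 CPM in EV, 255, 211 and 189 in EV_DOX, 246, 219.8 and 174 in DUX, and 87.2, 142 and 112 in DUX_DOX. All DUX_DOX libraries lay below the other 9, but the spread of the other groups was wide (-0.89, SE 0.26, adjusted p = 0.0446). The call was lost in 11 of 22 alternatives, with adjusted p from 0.00766 to 0.109: without EV 1, EV 3, EV_DOX 1, EV_DOX 2, DUX 1, DUX 2, DUX_DOX 1 or DUX_DOX 3, without EV 3 and EV_DOX 1 together, with no library factors and in 1 blocked fit. Trim63, MuRF1, the other classical atrophy ligase, measured 125 to 197 CPM in all 12 libraries with every group overlapping (-0.07, SE 0.20, adjusted p = 0.872). Smurf2, a ligase of SMAD proteins, measured 30.4 to 41.2 CPM outside DUX_DOX and 42.6, 45.9 and 42.2 in it (0.62, SE 0.12, adjusted p = 0.00418).

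Myostatin restrains muscle growth through receptor-activated SMADs. In the list of myostatin, activin and TGF-beta signalling, 3 SMAD genes were called. They were Smad2, which carries the myostatin and activin signal, Smad1, which carries the BMP signal, and Smad5. Smad3, the ligand Mstn and its antagonist Fst did not pass the test. Of 39 tested genes 5 were called higher (12.8%, against 6.97% of all genes) and 0 lower, with a median of 0.28. Among the 5 were Smad1, Smad2, Acvr1 (0.65) and Smad5 (0.63). Among ligands, Mstn, myostatin (chr1:53061640-53068079), measured 31.6, 51.8 and 47.7 CPM in EV, 36.0, 44.5 and 41.9 in EV_DOX, 40.3, 40.5 and 44.0 in DUX, and 54.8, 69.8 and 50.1 in DUX_DOX. DUX_DOX 3 lay below EV 2, so the groups overlap (0.58, SE 0.23, adjusted p = 0.112). Its adjusted p ran from 0.0201 without EV 1, the only setting that called it, to 0.279. Fst, follistatin, which binds and blocks myostatin, stayed at 1.17 to 4.08 CPM in all libraries (0.61, SE 0.51, adjusted p = 0.482).

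The receptor Acvr2b measured 0.696 to 4.82 CPM, with EV_DOX overlapping each other group (-0.25, SE 0.52, adjusted p = 0.806). Its sign was not stable between scales: as a difference of CPM the interaction was 0.241. Smad2, which carries the myostatin and activin signal (chr18:76241580-76310963), measured 11.8, 10.8 and 11.7 CPM in EV, 11.0, 11.5 and 11.0 in EV_DOX, 10.7, 9.46 and 8.97 in DUX, and 16.3, 19 and 16.8 in DUX_DOX. The DUX_DOX libraries were the 3 highest and the DUX libraries the 3 lowest (0.88, SE 0.15, adjusted p = 0.00256). Smad3, its partner, measured 116 to 175 CPM outside DUX_DOX and 96.8, 80.5 and 72.7 in it, apart from the other 9, with DUX also lower than EV by 0.34 log2, and its interaction did not pass the test (-0.33, SE 0.15, adjusted p = 0.179). Smad1, which carries the BMP signal, measured 11.4 to 14.7 CPM outside DUX_DOX and 26.8, 30.8 and 27.7 in it (1.01, SE 0.15, adjusted p = 9.28e-04).

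The count of 5 pathway genes became 11 without EV_DOX 1, and 3 without DUX 1, DUX 3 or DUX_DOX 2. Of 27 insulin and IGF genes 1 was called higher (3.70%, against 6.97% of all genes) and 2 lower (7.41%, against 3.43%). Igf2bp2, an mRNA-binding protein, measured 1.39 to 2.81 CPM outside DUX_DOX and 14.8, 13.8 and 11.7 in it (2.83, SE 0.33, adjusted p = 1.22e-04). Deptor, an inhibitor of mTOR, measured 94.8 to 119 CPM outside DUX_DOX and 56.9, 64.8 and 50.2 in it (-0.74, SE 0.15, adjusted p = 0.00594). Igfbp5, an IGF-binding protein, picked out after its values were seen, had -0.65.

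A set of scaffold proteins of the Z-disc and the fibre membrane was higher, while 0 of the fast contractile genes were. Of 45 sarcomere scaffold and dystrophin complex genes 14 were called higher (31.1%, against 6.97% of all genes) and 0 lower. The median was -0.03, so the called members stand apart from a list that otherwise centred near 0. Ankrd1, a titin-associated ankyrin repeat protein (chr19:36111961-36120099), measured 22.6, 7.70 and 15.7 CPM in EV, 20, 8.60 and 9.16 in EV_DOX, 9.96, 13.2 and 8.67 in DUX, and 646, 737 and 646 in DUX_DOX. The 9 other libraries overlapped and lay far below (6.27, SE 0.48, adjusted p = 2.20e-06). Xirp1, an actin-binding repeat protein (chr9:120013755-120023598), measured 108 to 184 CPM outside DUX_DOX and 2282, 2446 and 2126 in it (4.18, SE 0.22, adjusted p = 8.28e-08).

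Csrp3, the muscle LIM protein (chr7:48830398-48848033), measured 7.84, 23.9 and 8.82 CPM in EV, 16.5, 9.91 and 11.4 in EV_DOX, 23.6, 45.9 and 15.8 in DUX, and 739, 426 and 669 in DUX_DOX (4.52, SE 0.59, adjusted p = 2.94e-04). Flnc, filamin C, which crosslinks actin at the Z-disc and was picked out after its values were seen, measured 570.4 to 943 CPM outside DUX_DOX and 5792, 5733 and 4809 in it (3.16, SE 0.26, adjusted p = 3.73e-06). The other called members were Ankrd2 (2.48), Anxa2 (1.82), Xirp2 (1.57), Lmod2 (1.54), Pdlim3 (1.44), Nrap (1.39), Vim (1.02), Anxa1 (0.97), Anxa5 (0.90) and Dysf (0.62), which hold thin filament, Z-disc and membrane repair proteins. Vim and the annexins are also made by cells other than fibres. The number called higher stayed between 13 and 16 in every setting but 1, no library factors, where it was 18; 3 members were lower without EV_DOX 1 or DUX_DOX 1 and 4 with DESeq2.

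Fast fibre contractile and calcium handling genes had 0 of 30 called higher and 1 lower, yet 29 of the 30 values were negative and the median was -0.35. The lower count was 6 without EV_DOX 1 or DUX_DOX 1 and 8 with DESeq2's Wald test. The lower gene was Hrc, a calcium-binding protein of the sarcoplasmic reticulum, at 924 to 1139 CPM outside DUX_DOX and 755, 672 and 675 in it (-0.66, SE 0.13, adjusted p = 0.00690). Of 17 slow fibre genes 1 was called higher, Csrp3, and 2 lower (11.8%, against 3.43% of all genes). The 2 were Casq2 (-0.79) and Myl3, a slow myosin light chain (-0.92, SE 0.21, adjusted p = 0.0132). Only 1 was lower without EV 3, EV_DOX 3, DUX 1, DUX 3 or DUX_DOX 2. Regeneration genes had 3 of 28 called higher (10.7%, against 6.97% of all genes): Myh8, the perinatal myosin, Myog, myogenin, and Sox4 (0.89). Myog, which drives myoblast differentiation, measured 2.39 to 3.33 CPM outside DUX_DOX and 6.40, 6.15 and 8.42 in it (1.12, SE 0.26, adjusted p = 0.0139). The call for Myh8 (1.93, adjusted p = 0.0287) was lost without EV 1, EV 3, EV_DOX 2, EV_DOX 3, DUX 2, DUX 3, DUX_DOX 2 or DUX_DOX 3 (adjusted p from 0.00372 to 0.0870). The regeneration count was 1 without EV 3, EV_DOX 2, DUX 3, DUX_DOX 2 or DUX_DOX 3, and 5 without EV_DOX 1.

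Of 23 neuromuscular junction and denervation genes 3 were called higher (13.0%, against 6.97% of all genes) and 0 lower, with a median of -0.10. The 3 were Runx1, Musk and Myog. Musk, the receptor kinase that organises the synapse (chr4:58285960-58374303), measured 10.0, 8.50 and 9.44 CPM in EV, 9.71, 5.81 and 5.56 in EV_DOX, 5.69, 4.69 and 6.72 in DUX, and 14.9, 24.2 and 18.5 in DUX_DOX. DUX was below EV and DUX_DOX above all other libraries (2.15, SE 0.31, adjusted p = 6.46e-04). Runx1, a transcription factor known from denervated muscle, measured 1.68 to 4.82 CPM outside DUX_DOX and 12.3, 14.2 and 13.9 in it (2.16, SE 0.40, adjusted p = 0.00385).

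A share of the genes that burn fatty acids in mitochondria was called lower. Of 45 genes of fatty acid oxidation or the TCA cycle 15 were called lower and 0 higher, all 45 values were negative, and the median was -0.49. The median difference between the vectors was -0.31 on doxycycline chow and 0.25 on normal chow. The summed level was 14847 to 17825 CPM in EV, 14106 to 18203 in EV_DOX, 17843 to 19274 in DUX and 11783 to 13599 in DUX_DOX, so DUX_DOX lay below all other libraries and DUX overlapped EV_DOX at its upper end. In 10 of the 15 called genes all DUX_DOX libraries lay below the other 9.

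Hadh, an enzyme of the beta-oxidation spiral (chr3:131233419-131272101), measured 151, 166 and 147 CPM in EV, 158, 149 and 183 in EV_DOX, 187, 176 and 205 in DUX, and 125, 98.3 and 117 in DUX_DOX (-0.82, SE 0.15, adjusted p = 0.00364). Cpt2, which returns fatty acids to their CoA form inside the mitochondrion, measured 70.4 to 102 CPM outside DUX_DOX and 51.2, 51.5 and 52.8 in it (-0.84, SE 0.16, adjusted p = 0.00418). Ucp3, a mitochondrial carrier of fat-burning muscle (chr7:100472990-100486432), measured 147, 113 and 89.8 CPM in EV, 109, 116 and 185 in EV_DOX, 228, 118 and 188 in DUX, and 47.9, 67.4 and 84.2 in DUX_DOX. DUX_DOX did not overlap the others, which varied about 2-fold (-1.65, SE 0.38, adjusted p = 0.0131). Acadl, of long-chain acyl-CoA oxidation, and Idh2, a TCA cycle enzyme, were picked out after their values were seen. Acadl measured 243 to 341 CPM in the empty vector libraries, 379, 307 and 366 in DUX, and 251, 230.1 and 247 in DUX_DOX, which overlapped EV (-0.70, SE 0.16, adjusted p = 0.0130). The Idh2 call (-1.04, adjusted p = 0.0180) was lost without EV 3, DUX 3 or DUX_DOX 2 (adjusted p from 0.00102 to 0.0536).

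The count of 15 lower genes depended on single libraries: it was 32 without EV_DOX 1, 25 without EV 2, 9 without EV 1, EV_DOX 3 or DUX 1, and 7 without EV 3, DUX 3 or DUX_DOX 2. DESeq2's Wald test called 32 of them. The median lay between -0.59 and -0.35 in every setting.

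Respiratory chain genes showed the same sign with fewer calls. Of 70 nuclear-encoded oxidative phosphorylation genes 7 were called lower (10.0%, against 3.43% of all genes) and 0 higher. In this list 69 values were negative, and the median was -0.50. The median difference between the vectors was -0.18 on doxycycline chow and 0.30 on normal chow. Cox5b, a subunit of cytochrome c oxidase (chr1:36691449-36693681), measured 244, 242 and 205 CPM in EV, 267, 307 and 366 in EV_DOX, 334, 339.6 and 353 in DUX, and 308, 254 and 306 in DUX_DOX. Its DUX_DOX libraries overlapped EV_DOX and lay above all EV libraries, and EV was the lowest group (-0.68, SE 0.17, adjusted p = 0.0180, and 0.0533 without EV 3). Atp5k, an ATP synthase subunit (-0.67, adjusted p = 0.0192), was lost without EV 1 or DUX_DOX 2 (adjusted p up to 0.0549). The count of 7 was 52 without EV_DOX 1, 34 without EV 2, 13 without DUX_DOX 1, 4 without EV_DOX 2, 3 without DUX 2, 2 without EV_DOX 3, DUX 1 or DUX 3, and 1 without EV 1, EV 3 or DUX_DOX 2. It was 33 with DESeq2's Wald test, 18 with upper-quartile factors, 12 with DESeq2 size factors, 13 with the filter at 1 CPM and 3 with no factors. Of 9 mitochondrially encoded genes 1 was called lower, mt-Nd6, the complex I subunit read from the light strand, at 102, 85.8 and 67.7 CPM in EV, 97.7, 138 and 112 in EV_DOX, 153, 103 and 133 in DUX, and 86.5, 75.8 and 74.0 in DUX_DOX (-1.16, SE 0.23, adjusted p = 0.00686).

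**Figure D4:**
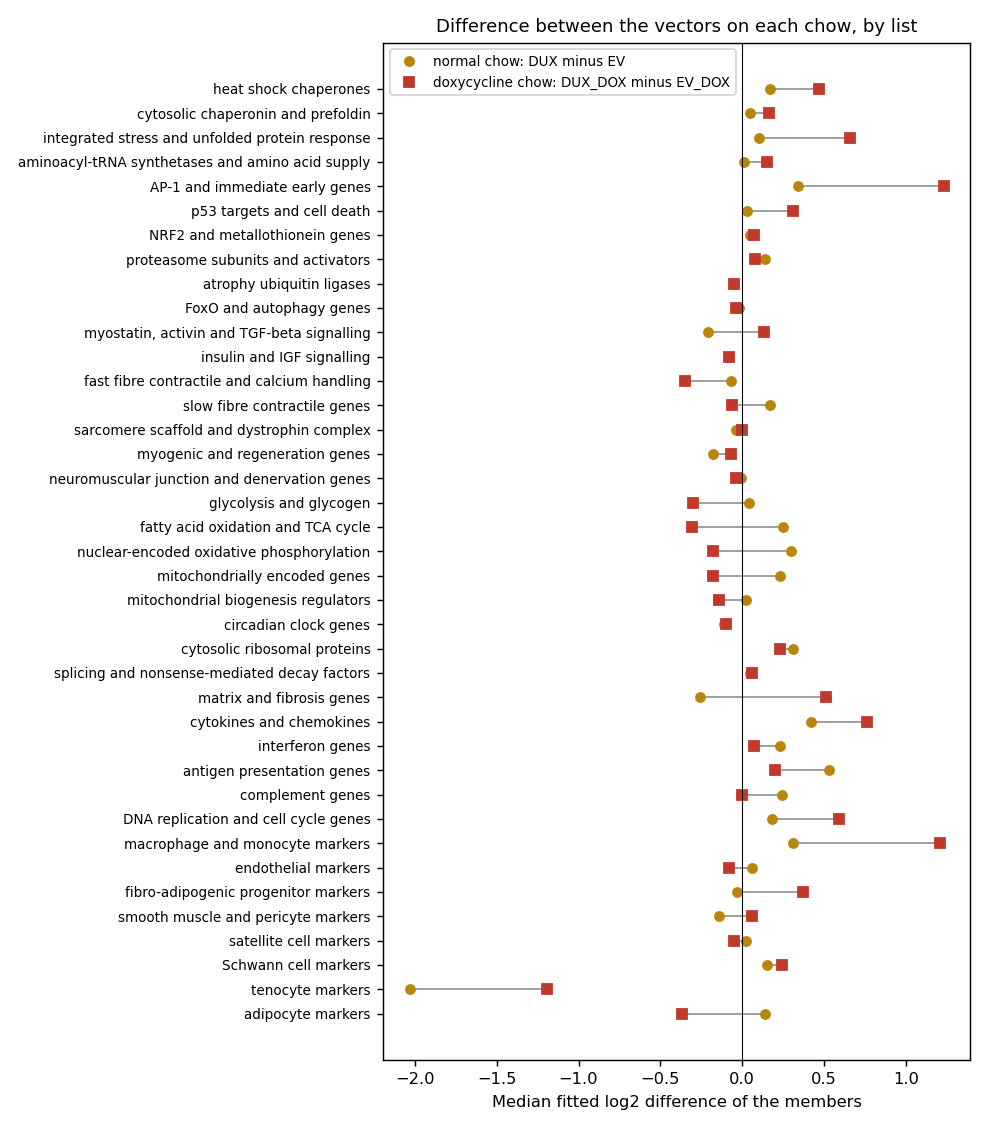
Median fitted log2 difference between Dux and empty vector (x axis) over the tested members of each list, on normal chow (gold circles) and on doxycycline chow (red squares); the line between them shows the gap. In the oxidative phosphorylation list the circle is at 0.30 and the square at -0.18, while in the heat shock list they are at 0.17 and 0.47; the tenocyte list lies at -2.03 and -1.19.

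Regulators of mitochondrial biogenesis had 1 of 24 called higher (4.17%, against 6.97% of all genes) and 4 lower (16.7%, against 3.43%). Perm1, a muscle regulator of oxidative genes (chr4:156215868-156221307), measured 292, 301 and 258 CPM in EV, 222, 201 and 246 in EV_DOX, 329.6, 314 and 273 in DUX, and 172, 119 and 134 in DUX_DOX (-0.76, SE 0.18, adjusted p = 0.0166). Ppargc1a, PGC-1 alpha, picked out after its values were seen, measured 43.3 to 56.5 CPM outside DUX_DOX and 30.3, 32.6 and 23.8 in it (-0.67, adjusted p = 0.0188). Its call was lost with no factors, without EV 3 or DUX 1, and without EV 3 and EV_DOX 1 together (adjusted p from 0.00351 to 0.0599). Pprc1, a relative of PGC-1 that responds to growth signals, was the higher one (0.69, SE 0.16, adjusted p = 0.0162). The lower count was 1 without EV 3 or DUX 1 and 2 without EV_DOX 3, DUX 2 or DUX_DOX 2.

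Glycolysis and glycogen genes had 4 of 34 called lower (11.8%, against 3.43% of all genes), with a median of -0.35. The glucose transporter Slc2a1 (0.95) was the 1 called higher (2.94%, against 6.97%). Pfkfb1, which sets the level of fructose 2,6-bisphosphate, measured 49.6 to 65.6 CPM outside DUX_DOX and 34.1, 19.7 and 31.7 in it (-1.05, SE 0.22, adjusted p = 0.00925). Phkg1, a kinase subunit that turns on glycogen phosphorylase, measured 471 to 552 CPM outside DUX_DOX and 341, 313 and 304 in it (-0.53, SE 0.11, adjusted p = 0.00740). The lower count was 12 without DUX_DOX 1, 11 without EV 2, 10 without EV_DOX 1, 2 without EV 3, EV_DOX 2, EV_DOX 3, DUX 1, DUX 3 or DUX_DOX 2, 9 with upper-quartile factors and 13 with DESeq2's Wald test. The Slc2a1 call was lost without EV 2, EV 3, EV_DOX 3, DUX 1, DUX 3, DUX_DOX 2 or DUX_DOX 3.

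Among genes with a highest group mean of at least 5 CPM whose DUX_DOX libraries stood apart, the naming rule gave Ucp3 and 7 other lower genes. Slc25a34, a mitochondrial solute carrier (chr4:141618824-141623821), measured 7.84, 14.5 and 7.83 CPM in EV, 9.56, 8.98 and 18.9 in EV_DOX, 24.6, 11.8 and 22.3 in DUX, and 4.34, 2.29 and 4.64 in DUX_DOX (-2.70, SE 0.51, adjusted p = 0.00457). Plin5, which couples lipid droplets to mitochondria (chr17:56111601-56117596), measured 12.1 to 30.2 CPM outside DUX_DOX and 8.61, 7.37 and 8.04 in it (-1.81, SE 0.29, adjusted p = 0.00116). For both, DUX had the highest group mean and DUX_DOX the lowest. Acot2, a mitochondrial acyl-CoA thioesterase, had -1.37, Nceh1, a cholesterol ester hydrolase, -1.24, and Mettl21e, a methyltransferase of muscle, -1.55. Pnpla3, a lipid droplet lipase, had -1.28 (adjusted p = 0.0161, and 0.0549 without EV 3 and EV_DOX 1 together). Plet1os (-1.33) overlaps Plet1 on the genome, a gene with 0 to 1 counts in the other groups and 175 in DUX_DOX, and whether the counting used strand is not given in the sources used here, so its value is uncertain.

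Ribosomal protein genes had 1 of 76 called, Rpl3, a large subunit protein, at 26.6 to 32.5 CPM outside DUX_DOX and 52.6, 49.4 and 60.9 in it (0.93, SE 0.13, adjusted p = 5.82e-04), and splicing and nonsense-mediated decay factors 0 of 31. Clock genes had 2 of 22 called higher (9.09%, against 6.97% of all genes). Per1, a repressor of the clock that also answers to stress hormones, measured 45.3 to 61.4 CPM outside DUX_DOX and 109, 110.3 and 88.6 in it (0.80, SE 0.17, adjusted p = 0.00988). Nfil3 (1.00, adjusted p = 0.0476) was lost in 13 of 22 alternatives (adjusted p from 0.0202 to 0.0915), including without any single DUX or DUX_DOX library, EV 2, EV_DOX 1 or EV_DOX 3.

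Several matrix and fibrosis genes were higher, among them tenascin C and Timp1, and 0 of 12 collagen genes were called (values from 0.12 to 1.21, Col4a2 and Col5a2). Of 35 members 11 were called higher (31.4%, against 6.97% of all genes) and 0 lower, with a median of 0.71. Timp1, an inhibitor of matrix proteases (chrX:20870166-20874735), measured 1.33, 0.721 and 2.69 CPM in EV, 1.53, 0.775 and 0.861 in EV_DOX, 0.949, 0.923 and 1.64 in DUX, and 28.7, 20.3 and 33.1 in DUX_DOX (5.10, SE 0.58, adjusted p = 8.40e-05). Tnc, tenascin C, a tendon and wound matrix protein (chr4:63959785-64047015), measured 18.7, 4.89 and 37.5 CPM in EV, 29.9, 5.19 and 2.11 in EV_DOX, 4.66, 3.54 and 6.72 in DUX, and 96.8, 79.2 and 132 in DUX_DOX. EV 3 and EV_DOX 1, the libraries rich in tendon genes, were the highest outside DUX_DOX (5.06, SE 1.03, adjusted p = 0.00686), and the interaction of Tnc was 6.05 without both (adjusted p = 1.09e-04). Postn, periostin, picked out after its values were seen, had 2.77 (adjusted p = 0.0252) and was lost without EV 1, EV 3, EV_DOX 2, DUX 1, DUX 2 or DUX_DOX 3 (adjusted p from 0.00695 to 0.0687). Col1a1, a fibrillar collagen chain picked out likewise, measured 686, 299 and 1577 CPM in EV, 1609, 527 and 211 in EV_DOX, 318, 285 and 449.9 in DUX, and 484, 620.2 and 583 in DUX_DOX (0.81, SE 0.83, adjusted p = 0.574). The interaction of Col1a1 was 0.01 without EV 3, 1.89 without EV_DOX 1 (adjusted p = 0.0655) and 1.10 without both (adjusted p = 0.164). Thbs1 (3.82), Ctgf (2.19), Bgn (1.39) and Fn1 (1.25) were called.

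The matrix count was 4 without EV 3 or DUX 2, 5 without EV 1, DUX 1 or DUX_DOX 3, 6 without EV_DOX 2 or DUX 3, and 7 without EV_DOX 3 or DUX_DOX 2, so 9 of 12 single libraries moved it by over 1.5 times. Without EV 3 and EV_DOX 1 together it was 10, with a median of 0.91. The tenocyte markers, which move with these libraries, had 2 of 13 called higher (15.4%, against 6.97% of all genes), Tnc and Cilp (2.61). Their median of 0.78 ran from -0.04 without EV 3 to 2.45 without EV_DOX 1. Their count was 5 without EV_DOX 1 and 1 without EV 1, EV 3, EV_DOX 2, EV_DOX 3, DUX 1, DUX 2 or DUX_DOX 3. The part of tendon RNA in the matrix result beyond these values was not tested.

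Some chemokines and macrophage markers were called higher. Of 14 tested cytokines and chemokines, from a list of 32, 6 were called higher (42.9%, against 6.97% of all genes) and 0 lower. The median was 0.75. In 2 of the 14 the mean outside DUX_DOX was under 10 counts, so they are in the table only through DUX_DOX. Ccl2 was below that mean. Ccl2, which draws monocytes into tissue (chr11:82035571-82037453), measured 0.0784, 1.52 and 0.690 CPM in EV, 0.146, 0.697 and 0.313 in EV_DOX, 1.27, 1.31 and 0.448 in DUX, and 19.7, 13.5 and 23.7 in DUX_DOX (5.20, SE 0.91, adjusted p = 0.00271). Tnfrsf12a, the TWEAK receptor of injured muscle, measured 6.34 to 15.6 CPM outside DUX_DOX and 117, 111 and 138 in it (3.71, SE 0.48, adjusted p = 2.64e-04). Csf1 (0.96), Ccl6 (1.34) and Ccl9 (1.55) were called as well.

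Macrophage and monocyte markers had 6 of 25 called higher (24.0%, against 6.97% of all genes), all 25 values positive and a median of 0.83. Their summed level was 166 to 259.5 CPM in EV, 160.2 to 227 in EV_DOX, 243 to 271 in DUX and 401 to 578 in DUX_DOX, without overlap of the last group. Cd68, a lysosomal protein of macrophages (chr11:69664213-69666153), measured 2.59, 4.01 and 6.44 CPM in EV, 4.75, 4.80 and 4.07 in EV_DOX, 6.48, 8.00 and 6.28 in DUX, and 24.8, 31.4 and 37.6 in DUX_DOX (2.12, SE 0.35, adjusted p = 0.00176). Itgam, CD11b, picked out after its values were seen, measured 0.627 to 1.64 CPM outside DUX_DOX and 5.33, 4.0 and 7.73 in it (2.07, SE 0.48, adjusted p = 0.0144). Lgals3 (1.62), Ccr2 (1.37), Lyz2 (0.78) and Cx3cr1 (2.83, adjusted p = 0.0164, and up to 0.0555 without EV 1 or EV 3) were the others. Cx3cr1, at 3.28, 4.08 and 4.10 CPM in DUX_DOX, spans Csrnp1 and Xirp1 on the same strand of the genome. Both were higher in DUX_DOX, and whether their reads add to the value of Cx3cr1 was not tested. The count of 6 called markers was 2 without EV 3 and 3 without EV_DOX 3, DUX 2, DUX 3 or DUX_DOX 3. On doxycycline chow alone 22 of the 25 were called higher with the Dux vector, against 14.9% of all genes. The part of these cells in the chemokine, matrix and cell cycle values was not tested.

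Markers of other cell types had 0 to 3 called members per list. Over all genes 6.97% were called higher and 3.43% lower, so 1 of 15 (6.67%) or 1 of 12 (8.33%) higher is near that share. Of the markers with tested members, fibro-adipogenic progenitors had 1 of 15 called higher, Mfap5, a microfibril protein (1.58, SE 0.34, adjusted p = 0.00984), satellite cells 1 of 15, Sdc4 (1.21), Schwann cells 1 of 12, Egr2 (2.04), which is also an immediate early gene, and smooth muscle and pericytes 0 of 11. Endothelial markers had 2 of 18 called lower, Kdr (-0.57) and Fabp4, and adipocyte markers 3 of 10, Plin4, Dgat2 (-0.70) and Fabp4. Plin4, a lipid droplet protein, measured 126 to 185 CPM outside DUX_DOX and 96.7, 79.2 and 76.8 in it (-0.75, SE 0.16, adjusted p = 0.0109). Fabp4, a fatty acid carrier on both lists (-0.55, adjusted p = 0.0387), was lost in 10 of 22 alternatives (adjusted p from 0.00552 to 0.0988), among them without any 1 EV library, EV_DOX 2, EV_DOX 3, DUX 1, DUX 3, DUX_DOX 1 or DUX_DOX 2. The endothelial count was 0 without EV 3, EV_DOX 2, DUX 1, DUX 3 or DUX_DOX 1. The adipocyte count was 1 without EV 3, EV_DOX 3, DUX 1, DUX 3, DUX_DOX 1 or DUX_DOX 2. Red blood cell markers had 0 of 6 called. Neutrophil, T and NK cell, and B and plasma cell lists had 1, 1 and 2 tested genes, and 0 of these were called.

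Interferon genes had 0 of 35 called and antigen presentation genes 0 of 21, with medians of -0.20 and -0.19. The interferon genes were uneven on normal chow. They summed to 583 CPM in EV 2, 673 in DUX 1 and 681 in DUX 2, and to 275 to 332 in the other libraries. Their median ran from -0.37 to -0.06 when single libraries were left out. Complement genes had 1 of 18 called, the receptor C5ar1 (1.80, adjusted p = 0.0465), lost in 10 of 22 alternatives (adjusted p from 0.0206 to 0.111), among them without EV 1, EV 3, DUX_DOX 2, DUX_DOX 3 or any 1 DUX library, and without EV 3 and EV_DOX 1 together. DNA replication and cell cycle genes had 3 of 31 called higher (9.68%, against 6.97% of all genes). In 4 of the 31 the mean outside DUX_DOX was under 10 counts. Pcna, the sliding clamp of DNA polymerase, measured 11.5 to 15.3 CPM outside DUX_DOX and 23.9, 27.3 and 30.9 in it (0.83, SE 0.15, adjusted p = 0.00384). The others were Cdt1 (1.95) and Mcm6 (1.22, adjusted p = 0.0203), the latter lost without EV 1, EV_DOX 2, EV_DOX 3 or DUX 3 (adjusted p up to 0.0559). The count was 1 without EV 1, EV_DOX 2 or DUX 3.

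Some called genes owe the interaction to groups other than DUX_DOX alone. Socs3, an inhibitor of cytokine signalling (chr11:117966079-117970047), measured 21.9, 3.37 and 1.92 CPM in EV, 3.58, 2.71 and 2.19 in EV_DOX, 2.85, 4.62 and 1.94 in DUX, and 15.5, 14.5 and 21.4 in DUX_DOX. EV 1 alone was as high as DUX_DOX, and without it the interaction of Socs3 was smaller, from 4.12 (SE 0.92, adjusted p = 0.0122) to 2.34 (adjusted p = 0.00978). Lox, which crosslinks collagen (chr18:52516067-52529867), measured 17.7, 8.58 and 44.6 CPM in EV, 31.5, 11.2 and 5.24 in EV_DOX, 6.33, 7.16 and 9.41 in DUX, and 31.4, 28.7 and 40.5 in DUX_DOX. EV 3 and EV_DOX 1 reached the level of DUX_DOX (2.69, SE 0.79, adjusted p = 0.0442), and the call was lost in 12 of 22 alternatives (adjusted p from 0.00155 to 0.136), among them without any 1 DUX or DUX_DOX library, EV 1, EV 3, EV_DOX 2 or EV_DOX 3. The interaction of Lox was 2.81 without EV 3 and EV_DOX 1 together (adjusted p = 0.00155).

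On the lower side, Grb14, an adaptor that inhibits the insulin receptor (chr2:64912476-65024987), measured 20.6, 31.5 and 18.4 CPM in EV, 15.3, 26.7 and 38.3 in EV_DOX, 36.3, 37.6 and 37.2 in DUX, and 18.2, 12.2 and 18.1 in DUX_DOX. Both empty vector groups spread over about 2-fold while DUX was high in all 3 (-1.38, SE 0.38, adjusted p = 0.0324). Its call was lost in 9 of 22 alternatives, without EV 1, EV 3, EV_DOX 2, EV_DOX 3, DUX_DOX 2, DUX_DOX 3 or any 1 DUX library (adjusted p from 0.00208 to 0.0867). Kit, a receptor kinase, measured 2.69 to 4.0 CPM in EV, 4.54 to 6.13 in EV_DOX, 3.96 to 5.46 in DUX and 2.36 to 3.36 in DUX_DOX (-1.33, SE 0.30, adjusted p = 0.0115), with the highest group mean in EV_DOX and the lowest in DUX_DOX. Slc25a22, a mitochondrial glutamate carrier, had -1.18 (adjusted p = 0.0189, and up to 0.0550 without DUX 1 or DUX 3). Plagl1, a zinc finger gene (1.76, adjusted p = 0.0316), and Pcdh17, a protocadherin (1.61, adjusted p = 0.0436), were lost in 9 and 11 of 22 alternatives, for both genes including the fits without EV 1, EV_DOX 3, DUX 1, DUX 2, DUX_DOX 2 or DUX_DOX 3 (adjusted p up to 0.117). The call for the interaction of Plagl1 was also lost without EV 3 and without EV 3 and EV_DOX 1 together (adjusted p = 0.0681), as was the Pcdh17 call without EV_DOX 2 or DUX 3.

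**Figure D5:**
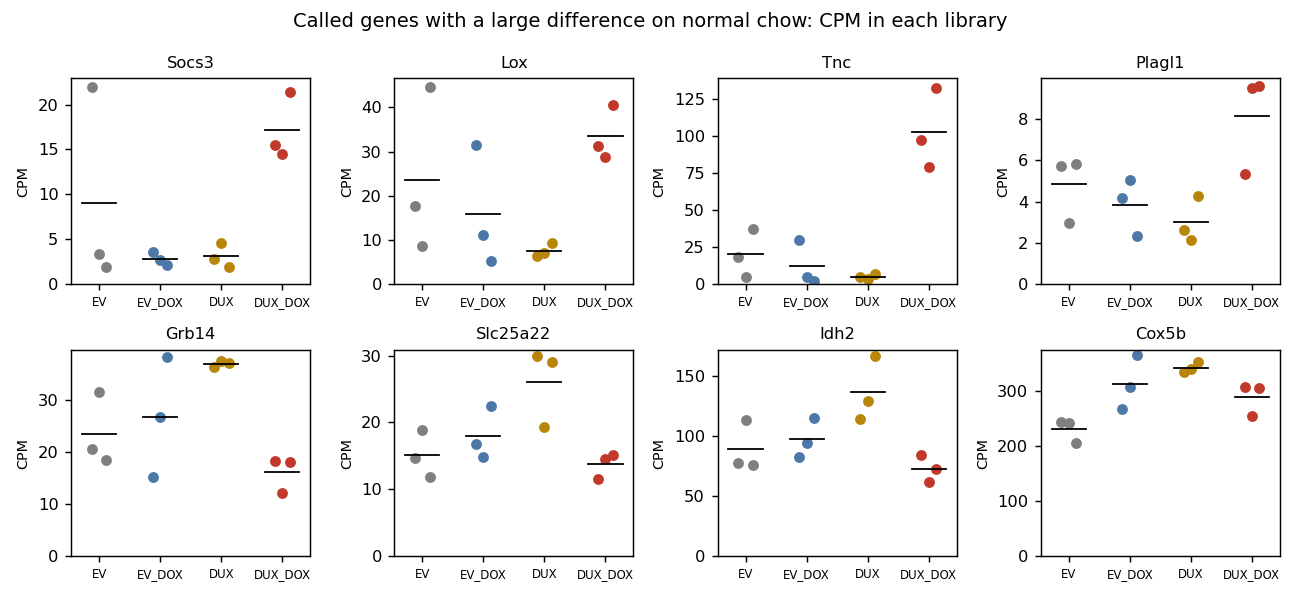
TMM-scaled CPM (y axis, from 0) of 8 called genes in each of the 3 libraries of the 4 groups (x axis); points are libraries and the bar is the group mean. In Tnc and Plagl1 the DUX_DOX mean is the highest of the 4 and in Idh2 the lowest, while Socs3 and Lox have single EV libraries at the level of DUX_DOX and in Cox5b the EV libraries are the lowest.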

How the data were processed

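Raw read counts per gene were deposited by the authors as 1 table. The submitters' processing notes name bcl2fastq 2.17.1.14, STAR, featureCounts and the build GRCm38. For the aligner and counter, version, annotation and strand setting are not stated there. The lowest mean count of a gene is 10. All columns were mapped by name (0 unmapped).

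edgeR 4.0.16 in R 4.3.3 fitted 1 mean per group to all 12 libraries (TMM, default filterByExpr; median biological coefficient of variation 12.3%; two-sided F test, Benjamini-Hochberg, threshold 0.05). Alternatives were limma 3.58.1 (voom), DESeq2 1.42.0, other library factors and filters, 2 blocked fits and leaving out libraries. Tested on simulated data of 12747 genes, the interaction recovered 20.9% of 1.5-fold, 59.7% of 2-fold and 97% of 4-fold changes with 5 false calls. Coordinates are GENCODE M21 on GRCm38. Of 12748 tested symbols, 9565 had a RefSeq promoter.

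The comparison, gene lists and rules were chosen with earlier results of these data known. Named genes were the 8 largest called values each way with DUX_DOX outside the other 9 libraries and a highest group mean of at least 5 CPM, the 4 largest each way without that, the smallest p of each list (2, or 1 per marker list), 3 genes with opposite chow changes, and 8 fixed genes. Others are said to be picked out after their values were seen; other list members are named by value only. Some genes that the rule chose are not reported here. Library pairs within groups differed beyond counting noise (lowest chi-square per degree of freedom 4.89).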

Additional observations from a re-analysis of the deposited data

Results flagged for a closer look

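The chow effect differed between the vectors, by the test of the interaction itself, in 1326 genes. Each called gene has this property by construction, and in 137 of them (103 higher, 34 lower) both chow changes were past 0.3 log2 and opposite in sign, against 388 of all genes tested. Given here are the 3 whose smaller chow change was largest, among genes with a highest group mean of at least 5 CPM. The interaction of Ccl2 was 5.20, made of -0.98 with doxycycline chow in empty vector muscle and 4.23 in Dux vector muscle. That of Socs3 was 4.12 (-1.67 and 2.45), where EV 1 at 21.9 CPM stood above EV 2 and EV 3 at 3.37 and 1.92. That of Ccl7, a chemokine of monocytes, was 4.23 (-1.0 and 3.23), with 0.0775 to 1.08 CPM in the 9 other libraries and 6.02, 6.29 and 6.03 in DUX_DOX. The changes in empty vector muscle did not pass the test. Groups of 3 libraries are too small for the check on single outlying samples.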

How the results depend on the processing

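The interaction of vector and chow was called for 1326 genes and for 813 to 2148 when 1 library was left out, and genes called lower in the interaction numbered 437 and 194 to 899 (670 without EV 2 and 899 without EV_DOX 1). With no library factors 180 were lower. Both limbs of a mouse share a chow, and on the same chow same-numbered libraries correlated at -0.11 to 0.18. Over all groups, different chows included, same-numbered libraries correlated at -0.42 to 0.2, and 3 of 12 matched their own number best. These values do not settle which libraries share an animal. The replicate block gave 1108 calls (791 higher, 317 lower), and the replicate block by chow 1007 (281 lower). Of the settings chosen after seeing the data, leaving out EV 3 and EV_DOX 1 together gave 1336 calls. Of the genes with more than 3 counts in each group 1321 were called.

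Of 97 called genes chosen by the naming rule or after their values were seen, 74 kept their call in all 22 alternatives, 23 lost it in at least 1, and 0 changed sign. Among uncalled genes Acvr2b changed sign without EV_DOX 1 (0.26), without DUX_DOX 3 (0.08) and without EV 3 and EV_DOX 1 together (0.21), with a range of -0.70 to 0.26 over single libraries left out, and Trim63 with no factors (0.08), without EV 1 (0.11) and without DUX 2 (0.03), with a range of -0.19 to 0.11. The cause was not tested. Simulated 1.5-fold interactions were recovered in 20.9% of genes, so small interactions can be missed with 3 libraries a group. The simulation changed 67, 67 and 66 genes by 1.5-, 2- and 4-fold, far fewer than the 1326 called in the data. Its recovery therefore need not hold for the data, where 324 called genes had an interaction under 1.5-fold.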

Other observations

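Cytoskeletal and regulatory genes outside the lists, picked out after their values were seen, were also higher in the interaction. Enah, an actin elongation factor, measured 42.3 to 52.8 CPM in the 9 libraries outside DUX_DOX and 629.6, 665 and 415 in it (3.68, SE 0.22, edgeR adjusted p = 2.08e-07). Tubb6, a beta tubulin of regenerating fibres, measured 10.3 to 16.8 CPM outside DUX_DOX and 102, 103 and 116 in it (3.21, SE 0.24, edgeR adjusted p = 1.76e-06). Otud1, a deubiquitinase, measured 8.31 to 20.1 CPM outside DUX_DOX and 315, 335 and 260.3 in it (4.32). Peg10, a gene derived from a retrotransposon, measured 0.633 to 1.84 CPM outside DUX_DOX and 26.7, 54.6 and 32.8 in it (4.71). None of the DUX_DOX libraries overlapped another group in these 4 genes.

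A pair of non-coding transcripts, picked out likewise, was called higher. Gm26917 measured 1.66 to 3.15 CPM outside DUX_DOX and 34.1, 61.7 and 36.4 in it (4.16, edgeR adjusted p = 2.79e-05), and Rn7sk, the 7SK RNA, which carries no poly-A tail, had 6, 3, 7 and 110 counts summed over EV, EV_DOX, DUX and DUX_DOX. Whether RNA quality differed between the groups was not tested. Hsp25-ps1, a processed copy of Hspb1, had 7, 3, 2 and 160 counts, and reads of the parent gene may be among them.

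The 5 genes that passed the test for doxycycline chow in empty vector muscle were Bmyc (0.98), Ccdc85b (1.19), Mafa (0.99), Phospho1 (1.30) and Scand1 (1.62), all higher on doxycycline chow. Their interactions were negative, and those of Phospho1 (-0.92, edgeR adjusted p = 0.0423) and Scand1 (-1.02, edgeR adjusted p = 0.0390) were called. The interaction subtracts the same change in empty vector muscle by which these 5 genes were picked. A negative sign was therefore favoured in advance, and these values are a description only.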
